A study of Mus musculus with 84 samples.

Results

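The 43 genes followed here are interferon-stimulated genes, the genes that cells switch on in response to interferon. They were chosen by gene symbol, kept where the count table held the symbol with reads, and make up 43 of the 18909 genes in the table. The choice was made with earlier results of these data known, so their levels are a description of this set and no sample of genes at large. The study followed reprogramming of mouse embryonic fibroblasts (MEFs) with and without constitutively active Smad3 (Smad3CA), and asked how Smad3CA alters the expression changes on the way to pluripotency.

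The 30 libraries fell into 10 groups of 3 biological replicates, all on a 129 strain background. MEF libraries came from wild-type fibroblasts grown without LIF and with FGF2 (5 ng/ml) and heparin. They were neither sorted nor given doxycycline. ESC libraries came from the TNG-MKOS embryonic stem cell line, grown with LIF (100 U/ml). The reprogramming libraries were taken on days 3, 6, 8 and 10 from transgenic MEFs that carry a doxycycline-inducible MKOS cassette (c-Myc, Klf4, Oct4 and Sox2) linked to mOrange and a Nanog-GFP reporter allele that removes 1 copy of Nanog, cultured among wild-type MEFs. They were infected with a retroviral vector for Smad3CA (Sm3CA) or for the blue fluorescent protein BFP (Cont), kept in doxycycline (300 ng/ml), vitamin C (10 µg/ml) and LIF, and sorted for mOrange. Both vectors are retroviral, so infection is shared by Cont and Sm3CA and is absent from MEF and ESC libraries, as are doxycycline and the sort.

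Type I interferons act through the receptor subunits IFNAR1 and IFNAR2 and the kinases JAK1 and TYK2, which lead to a complex that holds STAT2 and IRF9. This complex binds the interferon-stimulated response element (ISRE) in the promoters of its targets. Interferon gamma acts through IFNGR1 and IFNGR2 and on gamma-activated sites (GAS) in promoters. RNA sensors of the RIG-I family start interferon production, and pluripotent cells are known for a weak interferon response and for expressing some of these genes, IFITM1 among them, without it.

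Upstream sequence was read for the members from RefSeq (GRCm38.p6), as 250 bases before the gene start. A window was found for 34 of the 43 members. The ISRE core was searched as GAAANNGAAA and, on the other strand, TTTCNNTTTC. It was present in 14 of the 34 windows (41.2%), against 936 of 27025 genes with a window (3.46%) and 415 of 13285 genes of the count table with a window (3.12%). The GAS letters TTCNNNGAA, the same on either strand, were in 5 of 34 (14.7%), against 8.13% of all genes, and 3 members held both. A match is a run of letters and no evidence of binding, and a window without it says only that these letters are not in it. The windows shown were picked mostly among members with a core, so they do not represent the shares above. Igtp, 1 of them, was called in no comparison between the vectors. Oasl2, Ifitm3 and Ifi44, called lower in Sm3CA cells on day 10, had no core in their windows and are not shown. Each window is given as 160 bases up to the RefSeq start of the gene, 5′ to 3′ on its strand, with the ISRE core letters in capitals. Overlapping matches run together, as in the first sequence, and the last holds no match and stands for the other kind.
Isg15, chr4:156200819-156200978, minus strand: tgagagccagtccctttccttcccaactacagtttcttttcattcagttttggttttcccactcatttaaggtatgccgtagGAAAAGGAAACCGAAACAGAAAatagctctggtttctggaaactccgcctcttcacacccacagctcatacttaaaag
Ifit1, chr19:34640729-34640888, plus strand: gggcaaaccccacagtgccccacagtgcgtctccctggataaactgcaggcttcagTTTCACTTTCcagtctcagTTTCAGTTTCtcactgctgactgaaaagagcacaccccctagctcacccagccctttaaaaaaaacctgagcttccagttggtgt
Ifit3, chr19:34583369-34583528, plus strand: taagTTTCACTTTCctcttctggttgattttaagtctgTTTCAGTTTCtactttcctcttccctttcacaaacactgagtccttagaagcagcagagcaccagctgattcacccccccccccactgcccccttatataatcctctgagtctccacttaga
Gbp2, chr3:142620503-142620662, plus strand: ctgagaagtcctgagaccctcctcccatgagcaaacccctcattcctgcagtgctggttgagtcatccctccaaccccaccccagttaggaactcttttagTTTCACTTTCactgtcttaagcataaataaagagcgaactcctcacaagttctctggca
Irgm1, chr11:48871421-48871580, minus strand: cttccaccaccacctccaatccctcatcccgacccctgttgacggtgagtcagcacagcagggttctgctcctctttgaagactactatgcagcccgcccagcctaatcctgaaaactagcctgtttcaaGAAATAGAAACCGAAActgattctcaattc
Igtp, chr11:58199396-58199555, plus strand: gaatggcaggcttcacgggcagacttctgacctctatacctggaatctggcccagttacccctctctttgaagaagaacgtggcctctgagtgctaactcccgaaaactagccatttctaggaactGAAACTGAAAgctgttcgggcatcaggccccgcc
Irf7, chr7:141266425-141266584, minus strand: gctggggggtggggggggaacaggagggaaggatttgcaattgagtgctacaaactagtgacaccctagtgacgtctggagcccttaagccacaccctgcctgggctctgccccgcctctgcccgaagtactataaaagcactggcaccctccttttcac

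The windows of Isg15, Ifit3 and Igtp lie upstream of their GENCODE gene records, those of Ifit1, Gbp2 and Irf7 reach into them, and that of Irgm1 lies within its record, since the annotations place the start differently. Isg15 held 3 overlapping cores, at 78, 72 and 66 bases upstream, Irgm1 held 2 at 30 and 24, and Ifit1 held 2 at 104 and 85. Gbp2 had 1 core at 59 bases and Igtp 1 at 34. The other members with a core were Gbp3, Cxcl10, Oas3, Oas1a, Trim30a, Bst2, Stat2 and Rsad2.

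Many members are neighbours in the genome. In the GENCODE annotation of GRCm38, 19 of the 43 lay in 8 loci where members were at most 200000 bases apart. Ifit2, Ifit3 and Ifit1 shared chr19:34550694-34650009, Oas2, Oas3 and Oas1a shared chr5:120730333-120907521, and Parp14, Dtx3l and Parp9 shared chr16:35832874-35972605. The other 5 loci held Rsad2 and Cmpk2, Mx1 and Mx2, Gbp3 and Gbp2, Oasl2 and Oasl1, and Ifitm1 and Ifitm3. Dtx3l and Parp9 overlap on opposite strands, and the IFIT, OAS, GBP and IRG families hold close relatives, so the division of reads between such members is less certain than their sum.

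Depth was 1008596 to 2296059 reads per library (median 1602511), with medians of 1178845 in Cont and 1012324 in Sm3CA on day 10. The smallest library of all belonged to Sm3CA on day 10. Levels are given as normalised read counts (reads divided by a DESeq2 size factor), on which 3 reads, taken as the floor, correspond to 1.79 to 5.42. Smad3 was higher in every Sm3CA library than in every Cont library of the same day, at 89 to 184 against 5.19 to 18.7 on day 3 and 32.8 to 47.7 against 14.8 to 25.4 on day 10. The summed level of 7 ESC markers was 28275 to 53334 in ESC and 7.78 to 11.2 in MEF libraries, and that of 7 fibroblast markers was 4020 to 5689 in MEF and 2.74 to 9.04 in ESC libraries. Mitochondrial reads made up 20.9 to 24.3% of Sm3CA and 15.9 to 18.9% of Cont libraries on day 10. Day 3, day 10 and the other days lay in different rows of the plate, so day and row cannot be told apart in the steps from day 3 to 6 and from day 8 to 10, or between day 10 and the MEF and ESC libraries, which lay in the rows of day 3. Days 6 and 8 shared rows, and so did the vectors on each day.

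Of the 43 members, 40 passed the filter on low counts and were tested, and Dhx58, Oas3 and Mx1 were not. For 7 of the 40 (Isg15, Oasl1, Mx2, Bst2, Trim30a, Igtp and Parp14) the level the filter asks for was reached in fewer than 3 libraries outside Cont on day 10, so they were tested because of the group in which they were high. Counts over the 40 therefore do not cover all 43, and the calls of each comparison with Cont on day 10 are also given over the other 33. Percentages and counts by group mean or by single library are over all 43.

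In Cont cells the members were low on days 3 and 6 and climbed on days 8 and 10. The summed level of the 41 members other than Ifitm1 and Ifitm3, which are far more abundant, was 243, 319 and 215 in the 3 Cont libraries on day 3, 417, 525 and 403 on day 6, 1249, 1727 and 2254 on day 8, and 3421, 5036 and 4304 on day 10. Neighbouring days did not overlap. MEF libraries gave 444, 471 and 329, and ESC libraries 227, 244 and 298, both below every Cont library of days 8 and 10. By group mean, 41 of the 43 members were highest in Cont on day 10, and the other 2, Ifitm1 and Trim25, were highest in ESCs. In each of the 43 members the Cont mean was higher on day 10 than on day 8, with day 8 at a median of 42.0% of day 10, from 18.1% in Oas2 to 75.3% in Stat2.

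**Figure D1:**
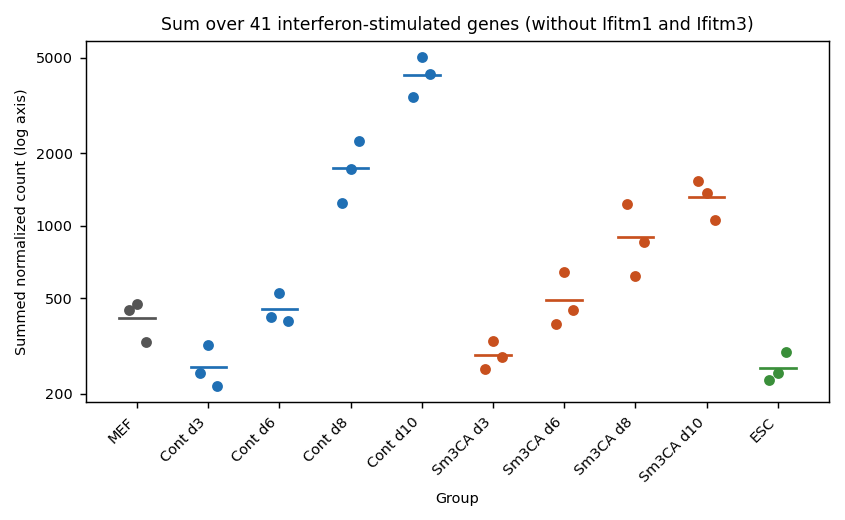
Summed normalised read count of the 41 members other than Ifitm1 and Ifitm3 (y axis, log scale) in each group (x axis), with 1 point per library and a line at the group mean. On day 10 the Cont libraries sit at 3421 to 5036 and the Sm3CA libraries at 1053 to 1529.

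Between day 3 and day 6, 3 of 40 tested members rose in Cont cells, against 4.91% of all genes tested that did (quasi-likelihood test in edgeR, called at an adjusted p under 0.05 by Benjamini-Hochberg, here and below). They were Usp18, which had no read in the 3 libraries of day 3 and 4.15, 9.57 and 7.03 on day 6 (at least 2.31-fold higher, adjusted p = 0.00992), Xaf1, which is linked to apoptosis (32.1, 68.7 and 20.3, then 117, 127 and 86.1, log2 difference 1.52, SE 0.28, adjusted p = 0.000281), and Cxcl10 (0.891, 1.3 and 0.813, then 8.31, 22 and 8.78, log2 difference 3.56, SE 1.04, adjusted p = 0.0244). The call of Cxcl10 was lost in 4 of the 6 fits without 1 library, with an adjusted p of 0.138 without Cont d6 replicate 2.

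On the log2 scale the step between day 6 and day 8 was larger than that between day 8 and day 10. From day 6 to day 8, 25 of 40 rose and none fell (1.4% of all genes tested rose). The median log2 difference was 2.44 over the 40, with a positive sign in every member tested. In counts, the Cont mean of day 8 was under 50% of that of day 10 in 30 of the 43 members, so most of their day 10 level was reached after day 8. The largest fitted changes belonged to Ifi47, a GTPase of the IRG family (0, 0.957 and 0, then 15.8, 28.5 and 23.9, log2 difference 5.86, SE 1.02, adjusted p = 0.000572), to Oasl2, an OAS-like protein (0.692, 0.957 and 0.878, then 17, 36.9 and 49.5, 5.22, SE 0.63, adjusted p = 1.46e-06) and to Irf7, the factor that amplifies interferon production (0.692, 0 and 0, then 3.4, 16.9 and 18.5, 5.11, SE 1.07, adjusted p = 0.00489). On day 6 these were at or under the floor of 3 reads, so the fitted fold changes depend on very few reads there. In 14 of the 25, Ifi47, Oasl2 and Irf7 among them, the call stood in each of the 6 fits without 1 library. The count fell to 16 without Cont d6 replicate 1, and ranged up to 29.

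Between day 8 and day 10 a further 18 of 40 rose in Cont cells (1.58% of all genes tested), again with a positive sign in each of the 40 and a median log2 difference of 1.18. Oas2 (5.66, 3.17 and 17.3, then 49.4, 49 and 46.2, log2 difference 2.33, SE 0.56, adjusted p = 0.015) and Oas1a (10.2, 7.39 and 16.7, then 65.4, 39.4 and 56.5, 2.17, SE 0.46, adjusted p = 0.00415), which make the oligoadenylates that activate RNase L, had the largest changes, with Mx2, an MX GTPase (3.4, 2.11 and 8.35, then 21, 25.1 and 19.8, 2.1, SE 0.6, adjusted p = 0.0499). Oas1a was called in each fit without 1 library. The call of Oas2 was lost in 4 of 6 such fits (adjusted p = 0.11 without Cont d8 replicate 1) and that of Mx2 in 5 of 6 (0.256 without Cont d8 replicate 2) and with replicate number as a block within the series (0.072). The count of 18 is fragile in the same way. It was 4 without Cont d8 replicate 1, 10 without Cont d8 replicate 2, 8 without Cont d10 replicate 2 and 9 without Cont d10 replicate 3, while Ifit1, Oas1a, Oasl2 and Ifitm3 kept their calls throughout. Over the 33 members that did not need Cont d10 to pass the filter, 17 rose, Mx2 being the 1 left out.

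In Sm3CA cells the members also climbed, to a lower level. The summed level of the 41 members was 253, 331 and 284 on day 3, 388, 643 and 445 on day 6, 1228, 618 and 854 on day 8, and 1529, 1365 and 1053 on day 10. The sums overlapped those of Cont cells on days 3 and 6 and lay below each of them on days 8 and 10. The margin was narrow on day 8, at 1228 in the highest Sm3CA and 1249 in the lowest Cont library. Unlike in Cont cells, the Sm3CA sums overlapped between days 6 and 8 and between days 8 and 10. Between day 3 and day 6, 9 of 40 rose (9.62% of all genes tested) and 1 fell (8.97% of all genes). Those with the largest change were Cxcl10 (no read in the 3 libraries of day 3, then 15.4, 45 and 4.05, at least 7.85-fold higher, adjusted p = 0.000131), Oas2 (no read, then 3.42, 3.88 and 0, adjusted p = 0.0445) and Ifit1 (0, 0 and 1.04, then 1.71, 17.9 and 6.75, adjusted p = 0.0101). The member that fell was Ifitm3, from 686, 866 and 636 to 246, 542 and 344 (log2 difference -0.93, SE 0.22, adjusted p = 0.00224). Without Sm3CA d6 replicate 2 the number called was 4, and neither Ifit1 (adjusted p = 0.177) nor Oas2 (0.122) passed.

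From day 6 to day 8, 10 of 40 rose in Sm3CA cells (2.98% of all genes tested), with a median log2 difference of 1.21, and 9 of those 10 were among the 25 that rose in Cont cells. The largest changes were in Ifi47 (0, 1.55 and 0, then 27.2, 4.29 and 5.65, log2 difference 4.1, SE 0.99, adjusted p = 0.00882), Ifit3 (0, 4.66 and 1.35, then 53.8, 7.97 and 12.1, 3.45, SE 0.69, adjusted p = 0.00254) and Ifi44 (0, 6.99 and 0, then 40.8, 19 and 21, 3.23, SE 0.63, adjusted p = 0.00189). Sm3CA d8 replicate 1 held the highest value in all 3. Without it the count was 4, and Ifi47 (adjusted p = 0.149) and Ifit3 (0.0725) did not pass, while Ifi44 did. The count was 6 without Sm3CA d6 replicate 1 and 6 without Sm3CA d6 replicate 3.

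From day 8 to day 10, 5 of 40 rose in Sm3CA cells (2.43% of all genes tested), with a median log2 difference of 0.39. They were Ifi27l2a (9.89, 4.9 and 6.46, then 49.1, 78.6 and 75.5, log2 difference 3.24, SE 0.59, adjusted p = 0.000541), Oas2 (2.91, SE 0.72, adjusted p = 0.0152), Oas1a (2.02, SE 0.51, adjusted p = 0.016), Samd9l (1.63, SE 0.38, adjusted p = 0.00758) and Ifi35 (0.74, SE 0.23, adjusted p = 0.0467). Only Ifi27l2a kept its call in each of the 6 fits without 1 library. The number called was 9 without Sm3CA d8 replicate 1, 2 without Sm3CA d8 replicate 2, 1 without Sm3CA d10 replicate 1 and 3 without Sm3CA d10 replicate 2. By group mean, 32 of the 43 members were higher in Sm3CA cells on day 10 than on day 8, and in 30 the Sm3CA mean of day 10 was still below the Cont mean of day 8.

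**Figure D2:**
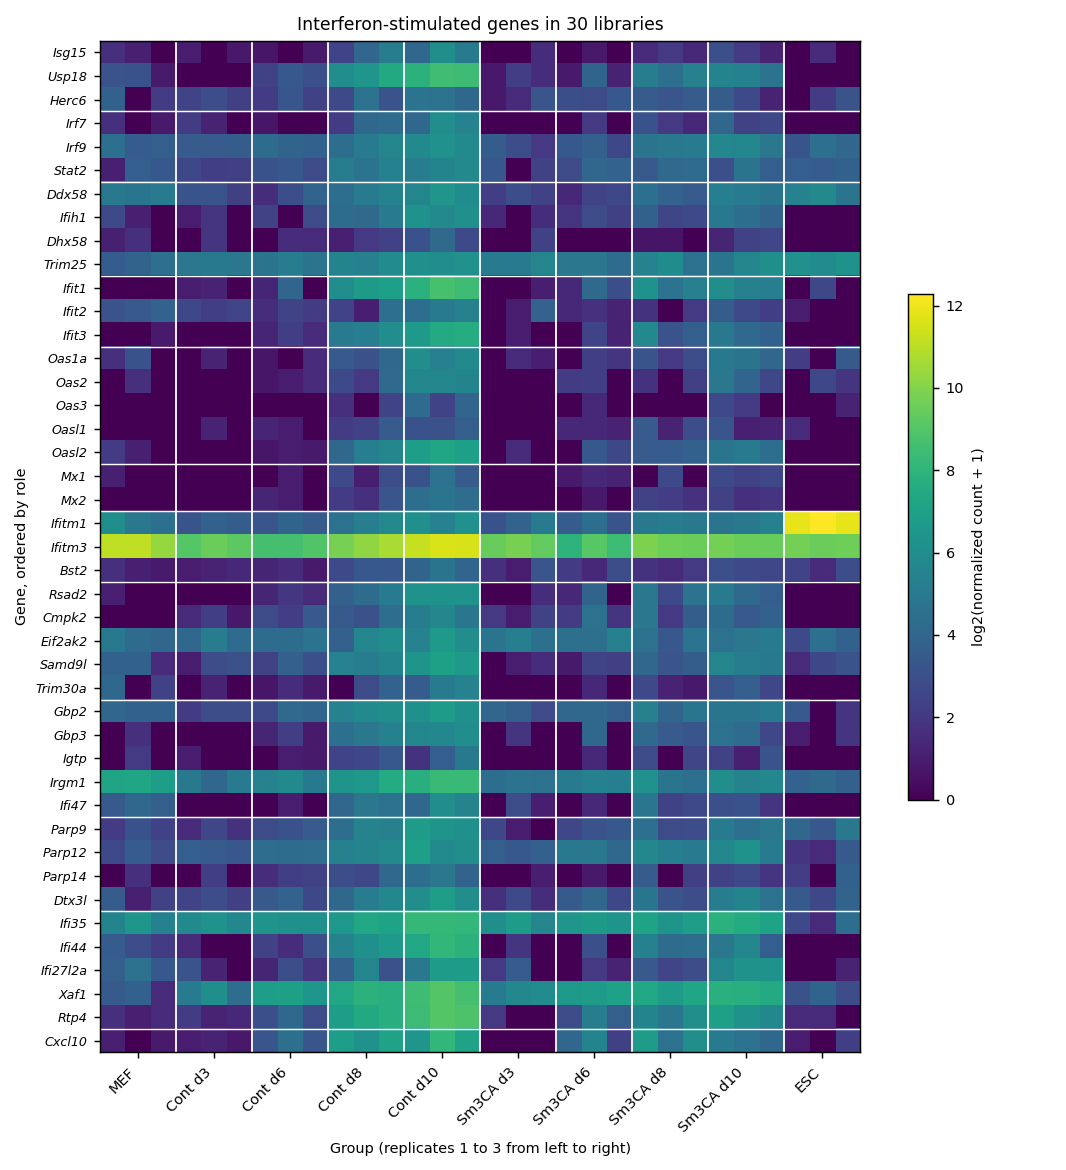
Levels of the 43 members in the 30 libraries, as log2 of the normalised read count plus 1 (colour scale), with genes in rows ordered by role and libraries in columns by group, replicates 1 to 3 from left to right. The Cont d10 columns are the brightest of the reprogramming groups for most members, Ifitm3 is bright throughout, and Ifitm1 stands out in ESC libraries at 3647 to 5000.

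Between Sm3CA and Cont cells, none of the 40 members was called on day 3 or on day 6 (edgeR, adjusted p under 0.05 in either direction for 0.0195% and 0.00977% of all genes tested). Without adjustment, 5 members had p under 0.05 on day 3 and 3 on day 6, in either direction (5.11% and 4.16% of all genes tested). DESeq2 called none on either day. The median log2 difference over the 40 was 0.10 on day 3 and 0.28 on day 6. All Sm3CA libraries lay below all Cont libraries for 1 of the 40 on day 3 and for 2 on day 6 (5.92% and 6.41% of all genes tested).

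On day 8, 7 of 40 were lower in Sm3CA cells and none higher (0.654% of all genes tested were called lower). The sign was negative in 39 of the 40, with a median log2 difference of -1.08 against 0 over all genes tested, and the libraries did not overlap in 12 (8.35% of all genes). Over the 33 members that did not need Cont d10 to pass the filter, 6 were called lower and 10 did not overlap. Over the 43 members the Sm3CA mean was a median of 45.5% of the Cont mean and was below it in 42. Cmpk2 was the exception, at 119%. The 7 called were Isg15, Usp18, Oasl2, Samd9l, Irgm1, Parp9 and Rtp4, and their values are given with their families below. The number called was 2 without Cont d8 replicate 3 and 1 without Sm3CA d8 replicate 2, up to 10 without another library, and Rtp4 alone kept its call throughout. Cont d8 replicate 3 was the highest Cont library of that day in 36 of the 43 members, and Cont d8 replicate 1 was in none.

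On day 10, 20 of 40 were lower in Sm3CA cells and none higher (2.74% of all genes tested were called lower). Each of the 40 had a negative sign, the median log2 difference was -1.69 against -0.01 over all genes, and the libraries did not overlap in 34 of the 40 (11.9% of all genes). Over the 33 that did not need Cont d10 to pass the filter, 18 were called lower, each had a negative sign, the median was -1.62 and 30 did not overlap. The Sm3CA mean was a median of 31.7% of the Cont mean over the 43 members, from 10.1% in Isg15 to 84.0% in Ifi27l2a, and under 50% in 37. The 7 members called on day 8 were all called on day 10, which makes 7 of 7 of the first list and 7 of 20 of the second. Without Cont d10 replicate 2 or without Sm3CA d10 replicate 3 the number called was 12, and it was at most 20. The 10 called in each of these 6 fits were Usp18, Ifit1, Ifit3, Oasl2, Ifitm3, Gbp2, Irgm1, Ifi44, Rtp4 and Cxcl10. In bulk libraries such as these, fewer cells that express a gene and less RNA per cell cannot be told apart.

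**Figure D3:**
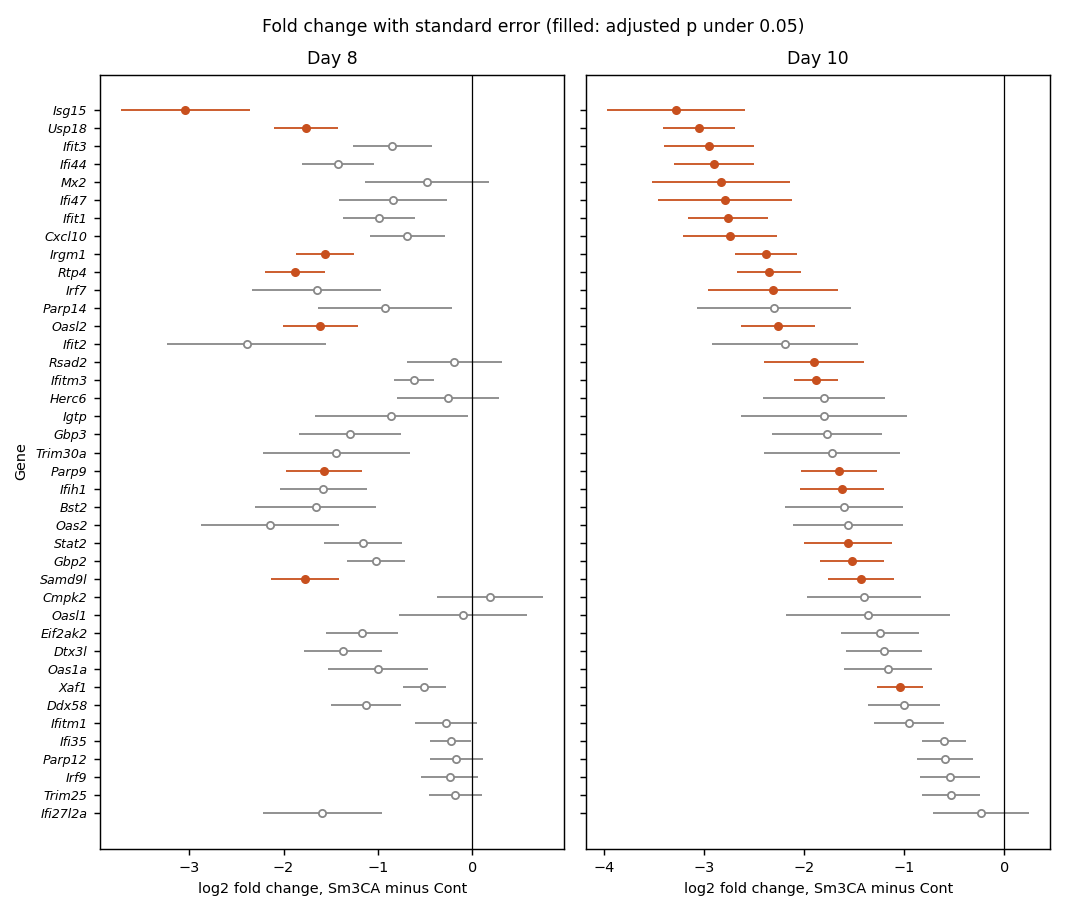
Fitted log2 difference between Sm3CA and Cont cells (x axis, negative where lower in Sm3CA) for the 40 tested members (rows) on day 8 and day 10, with bars for the standard error and filled points where the adjusted p is under 0.05. On day 8, 7 points are filled, and on day 10, 20 are, and each of the 40 points lies left of 0 on day 10.

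Markers of other cell types were summed in the same libraries. On day 10 the haematopoietic and fibroblast sums overlapped between the vectors. The keratinocyte sums were lower and the ESC sums higher in every Sm3CA library. The summed level of 10 haematopoietic markers was 658, 2779 and 2734 in Cont and 970, 896 and 1605 in Sm3CA libraries, with Lyz2 the most abundant and Fcer1g and Cd52 called lower in Sm3CA. None of the 10 was without reads in either group. On day 8 the haematopoietic sums overlapped (2635, 1698 and 1612 against 1178, 1407 and 2449). On day 6, when no member was called between the vectors, they did not (1481, 2046 and 1523 against 826, 596 and 1048). The 7 fibroblast markers summed to 540, 1495 and 1445 against 705, 733 and 510 on day 10, with Col1a1, Col1a2 and Prrx1 called lower. The 6 keratinocyte markers summed to 1507, 1780 and 1661 against 916, 703 and 474, with Krt14, Krt6a and Krt17 called lower and Krt5 and Trp63 at 0 or near it. On day 8 the keratinocyte sums did not overlap either (1057, 1445 and 1239 against 751, 565 and 726). The 6 endothelial markers overlapped on day 10, at 17.3, 17.9 and 24.5 against 21, 16.4 and 10.4. On day 10 the 7 ESC markers summed to 685, 433 and 1000 against 1124, 1254 and 2209, with Zfp42 and Dppa5a called higher. Of all genes tested, 2.74% were called lower and 0.83% higher on that day.

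Cont d10 replicate 1 had a haematopoietic sum below every Sm3CA library of that day and a fibroblast sum within their range. In that library 39 of the 43 members were above all 3 Sm3CA libraries, as many as in Cont d10 replicate 2 (39) and fewer than in replicate 3 (42). These counts include the 7 members that needed Cont d10 to pass the filter and the untested members. The share over all genes was not computed for single libraries. The fit without that library called 20 members, but it kept the 2 Cont libraries with haematopoietic sums of 2779 and 2734. Without Cont d10 replicate 2, which had the highest haematopoietic sum of that day, 12 were called. The keratinocyte sums, the ESC sums and the mitochondrial reads did not overlap between the vectors on day 10. The part of each of these cell types and of mitochondrial reads in the members' difference was not tested.

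**Figure D4:**
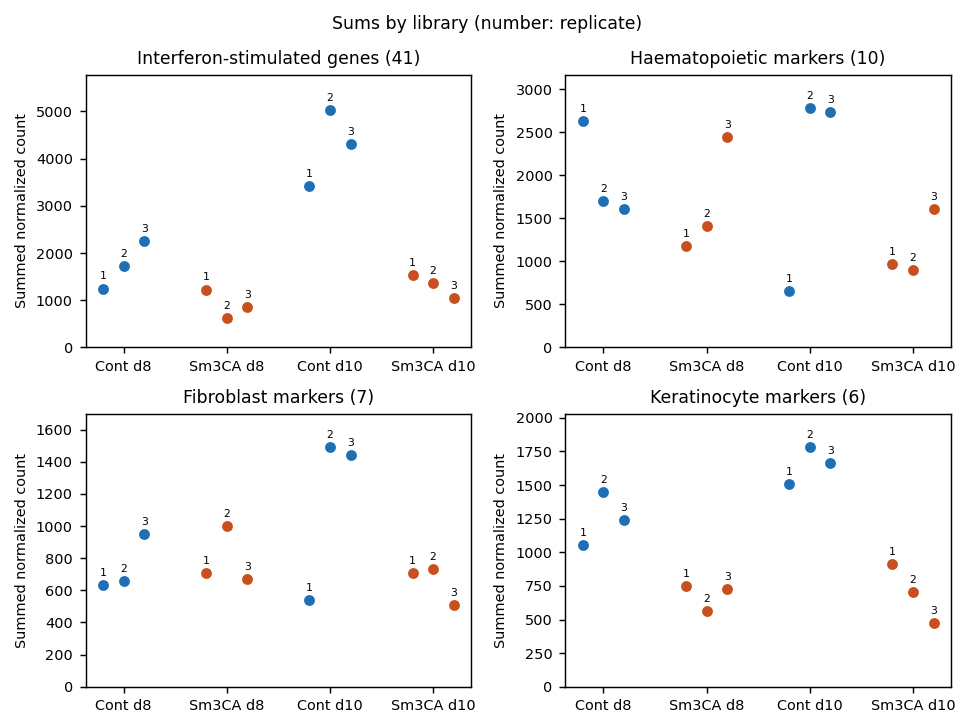
Summed normalised read counts (y axis) of the 41 members and of the haematopoietic, fibroblast and keratinocyte marker lists in the Cont and Sm3CA libraries of days 8 and 10, with a point per library and its replicate number. Cont d10 replicate 1 has the lowest haematopoietic sum of these libraries, 658, and a member sum of 3421, above every Sm3CA library.

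ISG15 is a ubiquitin-like protein that is joined to other proteins, USP18 is the protease that removes it and also damps the type I receptor, and HERC6 is the mouse ligase. Isg15 was measured at 4.53, 15.8 and 34.6 in Cont on day 8 and 16, 66.9 and 32 on day 10, against 1.85, 3.06 and 1.61 and then 7.01, 3.28 and 1.3 in Sm3CA libraries. It was lower in every Sm3CA library on both days (log2 difference -3.04, SE 0.68, adjusted p = 0.0171 on day 8, and -3.28, SE 0.69, adjusted p = 0.00279 on day 10), but most Sm3CA values were near the floor, the gene passed the filter only through Cont on day 10, and the call was lost without Cont d8 replicate 3 (adjusted p = 0.172) on day 8 and without Cont d10 replicate 2 (0.0686) on day 10. Usp18 had 63.4, 84.4 and 174 in Cont and 35.8, 21.4 and 39.6 in Sm3CA libraries on day 8, and 241, 363 and 339 against 46.3, 41.5 and 24.7 on day 10. The group means of Usp18 on day 10 were 314 ± 64.9 and 37.5 ± 11.3 (SD, n = 3 libraries). Its log2 difference was -1.76 (SE 0.34, adjusted p = 0.00539) and then -3.05 (SE 0.36, adjusted p = 7.64e-07). The Sm3CA libraries thus overlapped between the days for Usp18, while the Cont libraries did not. The day 8 call was lost without Cont d8 replicate 3 (adjusted p = 0.0989) or Sm3CA d8 replicate 2. Herc6 was not called on day 10 (24.7, 22.7 and 16 against 11.2, 5.46 and 1.3, adjusted p = 0.0932).

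Of the transcription factors of the signal, Irf7 and Stat2 were lower on day 10 and Irf9 was not called. Irf7 had 16, 64.5 and 42.4 in Cont and 15.4, 4.37 and 5.21 in Sm3CA libraries (log2 difference -2.31, SE 0.65, adjusted p = 0.0361). The lowest Cont library of Irf7 was barely above the highest Sm3CA library, and the call was lost in 4 of 6 fits without 1 library (adjusted p = 0.258 without Cont d10 replicate 2) and with replicate number as a block (0.0529). Stat2 had 35.8, 45.4 and 53.7 against 7.01, 25.1 and 11.7 (-1.56, SE 0.44, adjusted p = 0.034, lost in 4 of 6 fits, 0.179 without Sm3CA d10 replicate 1). Irf9 had 56.8, 74.1 and 57.5 against 50.5, 48.1 and 28.6 (-0.54, SE 0.3, adjusted p = 0.391). Irf9 was measurable in all groups, at 10.9 to 21.1 in MEF libraries, and was among the 10 members that rose in Sm3CA cells from day 6 to day 8 (1.59, SE 0.36, adjusted p = 0.00562).

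The RNA sensors RIG-I (Ddx58) and MDA5 (Ifih1) recognise viral RNA, and TRIM25 is a ubiquitin ligase that acts on RIG-I. Ifih1 had 77.8, 55 and 70.7 in Cont and 30.8, 20.8 and 14.3 in Sm3CA libraries on day 10 (-1.62, SE 0.42, adjusted p = 0.0203), a call lost in 4 of 6 fits (0.144 without Sm3CA d10 replicate 3). Ddx58 had 49.4, 84.8 and 61.2 against 37.9, 32.8 and 26 and was not called (-1.0, SE 0.36, adjusted p = 0.123), nor was Trim25, whose libraries overlapped. Dhx58, which encodes the related LGP2, was untested, at 7.41, 17.9 and 5.65 against 1.4, 4.37 and 5.21. Each Cont library of Dhx58 stood above each Sm3CA library, at levels of a few reads.

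IFIT proteins bind RNA with foreign 5′ ends. Ifit1 was at 231, 419 and 339 in Cont and 67.3, 40.4 and 37.8 in Sm3CA libraries on day 10 (330 ± 94.6 against 48.5 ± 16.3, SD, n = 3 libraries, log2 difference -2.76, SE 0.4, adjusted p = 1.73e-05), and Ifit3 was at 97.5, 179 and 197 against 30.8, 17.5 and 13 (-2.95, SE 0.45, adjusted p = 5.83e-05). On day 8 both overlapped between the vectors, with Ifit1 at 64.5, 103 and 121 in Cont and 79.7, 24.5 and 40.4 in Sm3CA libraries (adjusted p = 0.176). In Sm3CA d8 replicate 1, Ifit3 reached 53.8, within the Cont range of 32.8 to 63.8. Ifit2 had the same order on day 10 (21, 33.5 and 39.6 against 11.2, 5.46 and 3.91) and was not called (adjusted p = 0.0903). These members share a locus, and the Ifit1 and Ifit3 windows each held 2 ISRE cores.

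Of the OAS family, Oasl2 was lower on both days. It had 17, 36.9 and 49.5 in Cont and 10.5, 11 and 12.9 in Sm3CA libraries on day 8 (-1.61, SE 0.4, adjusted p = 0.0356), and 119, 148 and 121 against 25.2, 32.8 and 20.8 on day 10 (-2.26, SE 0.37, adjusted p = 0.000141). Its day 8 call was lost in 4 of 6 fits (0.169 without Cont d8 replicate 3). Mx2, a gene of the MX GTPases annotated as a polymorphic pseudogene, reached the filter level in Cont libraries of day 10 alone and was tested only through them, so its difference is a description. It had 21, 25.1 and 19.8 against 4.21, 2.18 and 2.6 on day 10 (-2.83, SE 0.69, adjusted p = 0.0114, lost in 3 of 6 fits, 0.105 without Sm3CA d10 replicate 2). Oas1a (adjusted p = 0.154) and Oas2 (0.115) did not overlap between the vectors and were not called, Oasl1 and Oas3 overlapped, and Mx1 was untested, at 7.41, 23.9 and 10.4 against 5.61, 4.37 and 5.21.

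IFITM proteins and BST2 (tetherin) act at membranes on virus entry and release. Ifitm3 was the most deeply counted of these on day 10, and was called on day 10 and not on day 8. It had 871, 1200 and 1688 in Cont and 942, 753 and 731 in Sm3CA libraries on day 8 (-0.62, SE 0.21, adjusted p = 0.135), and 2388, 3080 and 2976 against 829, 748 and 685 on day 10 (2815 ± 373 against 754 ± 72, SD, n = 3 libraries, -1.88, SE 0.22, adjusted p = 7.64e-07). In Sm3CA cells Ifitm3 rose from day 6 to day 8 (log2 difference 1.08, SE 0.22, adjusted p = 0.00252) and its day 10 values lay within or below those of day 8. Unlike most members it was abundant in MEFs, at 2217, 2184 and 1289, and stood at 856, 704 and 774 in ESCs. Bst2 had 14.8, 25.1 and 15.1 against 7.01, 5.46 and 5.21 on day 10 and was not called (-1.6, SE 0.59, adjusted p = 0.135). Ifitm1 was not called either (70.4, 43 and 74.4 against 25.2, 30.6 and 40.4, adjusted p = 0.129).

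Among other antiviral effectors, Rsad2 encodes viperin, which makes a chain-terminating nucleotide from the product of the neighbouring Cmpk2. Rsad2 had 77.8, 76.5 and 76.3 in Cont and 32.2, 17.5 and 11.7 in Sm3CA libraries on day 10 (-1.9, SE 0.5, adjusted p = 0.0226, lost in 4 of 6 fits, 0.151 without Sm3CA d10 replicate 3). The spread lay within the Sm3CA group for Rsad2, while the Cont libraries were close to each other. Samd9l, which restricts virus replication, was lower on day 8 (43, 34.8 and 45.9 against 16.1, 8.58 and 11.3, -1.77, SE 0.36, adjusted p = 0.00888) and on day 10 (81.5, 125 and 99.9 against 47.7, 35 and 29.9, -1.43, SE 0.33, adjusted p = 0.00704). These calls were lost without Sm3CA d8 replicate 2 (0.0856) and in 3 of 6 fits on day 10 (0.0786 without Cont d10 replicate 2). Eif2ak2, which encodes the kinase PKR that stops translation, had 43.2, 98 and 63.1 against 23.8, 28.4 and 32.6 and was not called (-1.24, SE 0.39, adjusted p = 0.0618), nor were Cmpk2 and Trim30a.

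The GBP and IRG families are GTPases that attack membranes around intracellular microbes, and they are classic targets of interferon gamma. Irgm1 had 81.5, 91.8 and 185 in Cont and 72.3, 26.3 and 21.8 in Sm3CA libraries on day 8 (-1.56, SE 0.31, adjusted p = 0.00539), and 205, 320 and 320 against 67.3, 43.7 and 50.8 on day 10 (-2.38, SE 0.31, adjusted p = 5.65e-06). The day 8 call of Irgm1 was lost without Cont d8 replicate 3 (0.0983) or Sm3CA d8 replicate 2. Gbp2 had 71.6, 106 and 71.6 against 26.6, 26.2 and 32.6 on day 10 (-1.52, SE 0.32, adjusted p = 0.00327) and Ifi47 had 16, 63.3 and 44.3 against 7.01, 7.65 and 2.6 (-2.79, SE 0.67, adjusted p = 0.0099, lost without Cont d10 replicate 2, 0.102, or Sm3CA d10 replicate 3). Igtp was scattered in Cont, at 2.47, 11.9 and 30.2 against 4.21, 1.09 and 7.81, and was not called (-1.8, SE 0.83, adjusted p = 0.267). Gbp3 (adjusted p = 0.0654) did not overlap and was not called.

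PARP9 and its partner DTX3L modify histones and other proteins during the interferon response. Parp9 had 20.4, 44.3 and 39.4 in Cont and 21.6, 6.13 and 6.46 in Sm3CA libraries on day 8 (-1.57, SE 0.4, adjusted p = 0.0443), where 1 Sm3CA library reached the Cont range. On day 10 it had 109, 81.2 and 71.6 against 32.2, 21.8 and 28.6 (-1.65, SE 0.38, adjusted p = 0.00712). The calls were lost in 4 of 6 fits on day 8 (0.225 without Sm3CA d8 replicate 2) and without Sm3CA d10 replicate 2 (0.0699) on day 10. Dtx3l (adjusted p = 0.0741) and Parp14 (0.0922) did not overlap on day 10 and were not called, and Parp12 overlapped.

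Rtp4, Ifi44 and Xaf1 were lower as well, and they are interferon-induced genes with less settled roles. Rtp4 had 119, 175 and 206 in Cont and 45.1, 27 and 65.4 in Sm3CA libraries on day 8 (-1.88, SE 0.32, adjusted p = 0.00139), and 346, 517 and 464 against 126, 79.7 and 52.1 on day 10 (-2.35, SE 0.32, adjusted p = 7.88e-06). The groups of Rtp4 stood clear of each other on both days. Ifi44 had 163, 283 and 240 against 28, 49.2 and 11.7 on day 10 (-2.9, SE 0.4, adjusted p = 7.88e-06), and Xaf1 had 357, 517 and 405 against 219, 213 and 181 (-1.04, SE 0.23, adjusted p = 0.00482, lost without Cont d10 replicate 2, 0.0657, or Sm3CA d10 replicate 3). Ifi27l2a had the smallest difference, at 29.6, 108 and 105 against 49.1, 78.6 and 75.5 (-0.23, SE 0.48, adjusted p = 0.869), and Ifi35 was not called (adjusted p = 0.132).

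Cxcl10, the single chemokine of the list, draws T cells to sites of inflammation. It had 112, 73.9 and 135 in Cont and 108, 23.3 and 67 in Sm3CA libraries on day 8 (-0.69, SE 0.4, adjusted p = 0.434), and 82.7, 281 and 134 against 33.6, 22.9 and 16.9 on day 10 (-2.74, SE 0.47, adjusted p = 0.000334). In Sm3CA cells the 3 libraries of day 10 lay within or below the range of day 8, and in Cont the spread of Cxcl10 between libraries was wide.

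**Figure D5:**
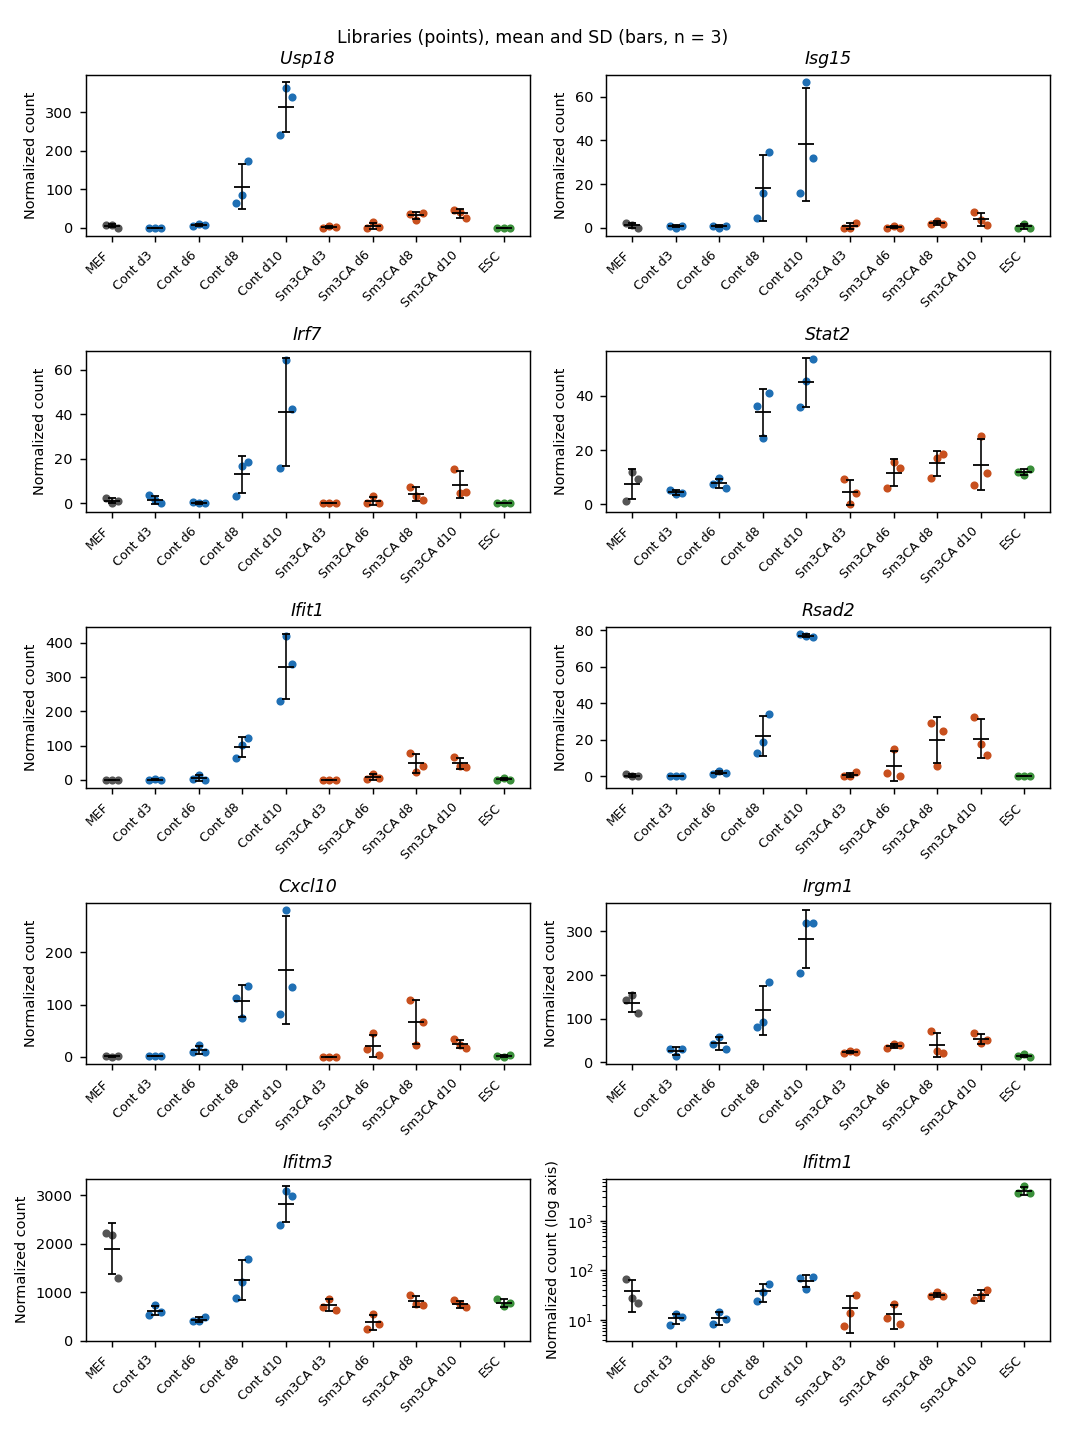
Normalised read counts of 10 genes (1 panel each, y axis, on a log scale for Ifitm1) in the 10 groups (x axis), with a point per library and bars for the mean and SD (n = 3 libraries). Usp18 stands at 241 to 363 in Cont and at 24.7 to 46.3 in Sm3CA libraries on day 10, and Ifitm1 is highest in ESC libraries.

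The change over time was itself compared between the vectors. Comparing the Sm3CA minus Cont difference of day 10 with that of day 3, 4 of 40 members were called lower (0.899% of all genes tested), with a median of -1.59, and the same 4 were called among the 33. Ifitm3 (-2.12, SE 0.3, adjusted p = 8.74e-05), Gbp2 (-2.58, SE 0.58, adjusted p = 0.0175) and Irgm1 (-2.17, SE 0.5, adjusted p = 0.022) had reads in every library concerned. Usp18 (-7.33, SE 1.87, adjusted p = 0.0425) had none in Cont on day 3, so the size of its fitted value depends on the prior count and is no bound. Ifitm3 alone was called in each of the 12 fits without 1 library. The count was 1 without Cont d3 replicate 1, Cont d10 replicate 2 or Sm3CA d10 replicate 2, and 2 without Cont d10 replicate 3, Sm3CA d3 replicate 2, Sm3CA d3 replicate 3 or Sm3CA d10 replicate 3. With replicate number as a block within each series, Ifi47 (-7.13, adjusted p = 0.0371) and Xaf1 (-1.36, adjusted p = 0.0334) were called in addition, the first again with no read in Cont on day 3. Irgm1 was lost in 8 of the 12 fits (0.0855 without Sm3CA d3 replicate 2), Usp18 in 9 (0.256 without Sm3CA d3 replicate 2) and Gbp2 in 4 (0.0931 without Cont d3 replicate 1).

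Against day 8 in place of day 3, no member was called by edgeR (0.127% of all genes tested were called lower). Without adjustment, 9 members had p under 0.05 in edgeR, where 11% of all genes tested did in either direction. The median was -0.49, and DESeq2 called 1 member. In the main fit a widening of the difference between days 8 and 10 was therefore not shown for any member. Without the filter on low counts, 6 members were called lower. With replicate number as a block, Ifitm3 was called (-1.28, adjusted p = 0.0489), and so was 1 member in the fit without Cont d8 replicate 3 or without Cont d10 replicate 1, and 2 without Sm3CA d8 replicate 3.

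Set against MEFs, the share of members that were lower on day 3 was close to that of all genes. In Cont cells 9 of 40 were lower (20.9% of all genes tested were lower) and 2 were higher (22.6% of all genes). The largest fitted differences downwards were in Ifi47 (10, 16.3 and 12.1 in MEF and no read in Cont, at least 4.26-fold lower, adjusted p = 0.000193), Usp18 (7.78, 7.6 and 0.864 against no read, at least 1.8-fold lower, adjusted p = 0.00762) and Trim30a (16.7, 0 and 4.32 against 0, 1.3 and 0, adjusted p = 0.0191, 0.239 without MEF replicate 1). Also called lower were Ddx58, Ifitm1, Ifitm3 and Irgm1, which kept their calls in each of the 6 fits without 1 library. Irgm1 had 143, 154 and 112 in MEF and 30.3, 15.6 and 30.9 in Cont libraries. The remaining calls, of Ifi44 and Ifi27l2a, were each lost in 3 of 6 fits. Higher were Xaf1 (10, 13 and 1.73 against 32.1, 68.7 and 20.3, log2 difference 2.4, SE 0.42, adjusted p = 1.16e-05) and Trim25 (0.97, SE 0.36, adjusted p = 0.0236, 0.136 without MEF replicate 1). The number called in all was 7 without Cont d3 replicate 3.

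In Sm3CA cells on day 3, 8 of 40 were lower than in MEFs (20.7% of all genes tested) and 3 higher (22.4% of all genes), in a comparison that uses the same MEF libraries. Trim30a (no read in Sm3CA libraries, at least 2.55-fold lower, adjusted p = 0.0047, 0.0698 without MEF replicate 1), Samd9l (13.3, 13 and 1.73 against 0, 0.927 and 2.09, -3.04, SE 0.82, adjusted p = 0.00246) and Ifi44 (-2.65, SE 1.01, adjusted p = 0.0312, 0.129 without Sm3CA d3 replicate 1) had the largest differences downwards. Cmpk2 (no read in MEF libraries, 3.07, 0.927 and 4.17 in Sm3CA, adjusted p = 0.0318, 0.0862 without MEF replicate 3), Xaf1 (2.7, SE 0.41, adjusted p = 8.8e-07) and Trim25 (1.31, SE 0.35, adjusted p = 0.00196) were higher. Cmpk2 was near the floor on both sides. The number called was 7 without MEF replicate 1, and 3 reads or fewer were counted in every MEF library for 19 of the 43 members, so a decrease from MEFs could not have been seen for these.

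By day 10, 39 of 40 members were higher in Cont cells than in MEFs (21.9% of all genes tested were higher), with a median log2 difference of 4.08, or 3.67 with members that had no read in MEFs set to their bound, against 0.11 over all genes. Over the 33 members it was 32, with a median of 3.99. Ifit1 had no read in MEF libraries and was at least 108-fold higher (adjusted p = 5.45e-13), Ifit3 had 0, 0 and 0.864 (8.51, SE 0.81, adjusted p = 3.77e-11), and Cmpk2 was at least 12.3-fold higher (adjusted p = 6.12e-07). The smallest called difference was in Ifitm3 (0.66, SE 0.24, adjusted p = 0.0252), which was lost in 3 of 6 fits (0.17 without MEF replicate 3). The member not called was Ifitm1, at 67.8, 28.2 and 21.6 in MEF libraries. MEF libraries differ from Cont in infection, sort and doxycycline, which cannot be told apart from the day.

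Most members were low in ESCs. No read was counted in any ESC library for 14 of the 43, and 3 reads or fewer in every library for 24. Compared with Cont cells on day 10, 36 of 40 were lower (30.3% of all genes tested) and 1 was higher (21.5% of all genes). The median log2 difference was -5.11, or -3.69 with bounds, against -0.15 over all genes. Over the 33 members 30 were lower, with a median of -4.88. Usp18 (at least 78.5-fold lower, adjusted p = 9.43e-14), Ifi44 (at least 57.1-fold, adjusted p = 1.48e-12) and Ifit3 (at least 39.4-fold, adjusted p = 5.91e-11) had no read in ESCs. Compared with MEFs, 10 of 40 were lower in ESCs (30.5% of all genes tested) and 4 higher (29.1% of all genes). The median was -0.51 against -0.45 over all genes. Among those lower with no read in ESCs were Ifi47 (at least 3.19-fold, adjusted p = 0.000271), Trim30a (at least 1.75-fold, adjusted p = 0.00693, 0.0813 without MEF replicate 1) and Ifi44 (at least 1.75-fold, adjusted p = 0.00408).

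Ifitm1 departed most from the low ESC levels of most members. It had 3647, 5000 and 3657 in ESC libraries and 67.8, 28.2 and 21.6 in MEF libraries (log2 difference 6.82, SE 0.36, adjusted p = 4.16e-20), and was also higher than in Cont cells on day 10 (6.02, SE 0.34, adjusted p = 1.04e-18). No reprogramming library of Ifitm1 exceeded 74.4. The others that were higher in ESCs than in MEFs were Trim25 (73.1, 59.6 and 78.4 against 11.1, 14.1 and 21.6, 2.24, SE 0.34, adjusted p = 2.81e-07), Parp9 (1.97, SE 0.57, adjusted p = 0.00281) and Parp14 (2.96, SE 1.23, adjusted p = 0.0358, 0.346 without ESC replicate 3). Trim25 reached similar values in Cont on day 10, at 70.4, 64.5 and 74.4.

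In several groups most members were highest in the same library. Sm3CA d6 replicate 2 was the highest of its group in 33 of 42 untied members, Sm3CA d8 replicate 1 in 28 of 41 and Sm3CA d10 replicate 1 in 28 of 43. In Cont, replicate 2 was highest in 25 of 42 members on days 6 and 10, and in 18 of 33 on day 3, and replicate 3 in 36 of 43 on day 8. No library led clearly in Sm3CA on day 3, where the replicates were highest in 5, 14 and 15 of 34 members, and the leading library had 20 of 38 in MEFs and 15 of 29 in ESCs. The members of a library share its cells and its size factor, so these counts describe libraries and are not separate observations.

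Genes upstream of the members were compared between the vectors in the same fit. The receptor genes Ifnar1 (log2 difference -0.25, adjusted p = 0.785), Ifnar2 (-0.45, adjusted p = 0.587) and Ifngr1 (0.09, adjusted p = 0.93) were not called on day 10, nor was the factor Irf1 (-0.53, adjusted p = 0.686). Ifngr2 was lower, at 13.6, 16.7 and 17 in Cont and 2.8, 6.55 and 3.91 in Sm3CA libraries (-1.76, SE 0.52, adjusted p = 0.0485), a call lost in each of the 6 fits without 1 library (up to 0.175 without Sm3CA d10 replicate 1). In all, 1 of 8 tested receptor and kinase genes, 1 of 10 nucleic acid sensors and adaptors (Zbp1, a sensor of Z-form nucleic acid, -1.54, SE 0.33, adjusted p = 0.00339, lost without Cont d10 replicate 2, 0.0582, or Sm3CA d10 replicate 3) and 0 of 8 negative regulators were called lower on day 10, where 2.74% of all genes tested were. In ESCs Ifnar2 (-3.53, SE 0.45, adjusted p = 1.01e-08), Ifngr1 (-4.35, SE 0.56, adjusted p = 1.15e-08) and Ifngr2 (-6.27, SE 0.61, adjusted p = 9.64e-12) were lower than in MEFs. No row carried the symbol Ifnb1 or any of the other 14 interferon gene symbols looked for, so the interferons themselves were not analysed here.

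A further 78 interferon-stimulated genes outside the 43 were listed, of which 75 were in the table and 52 were tested. On day 10, 15 of the 52 were lower in Sm3CA cells (2.74% of all genes tested) and none higher, with a median log2 difference of -1.0, and on day 8 Psme1, a proteasome activator, was the 1 called (-1.07, SE 0.24, adjusted p = 0.0156, 0.127 without Sm3CA d8 replicate 2). In Cont cells 19 of the 52 rose from day 6 to day 8 (1.4% of all genes) and 11 from day 8 to day 10 (1.58%). The largest differences between the vectors on day 10 were in Apol9a (-3.01, SE 0.63, adjusted p = 0.00327), Tgtp1 (-2.99, SE 0.67, adjusted p = 0.00554), its close copy Tgtp2 (-2.7, SE 0.66, adjusted p = 0.0126) and Lgals3bp, a secreted galectin-binding protein (37, 128 and 160 against 14, 18.6 and 19.5, -2.62, SE 0.4, adjusted p = 4.82e-05). Irgm2, Ifi203, Ifi204, Ifi205, Mnda, Ifi27, Lgals9, Ube2l6, Ifitm2, Ly6e and Shisa5 were the others, with log2 differences from -2.04 in Irgm2 to -0.72 in Shisa5. Of these 15, Ifi204, Ifi27, Apol9a, Lgals9, Lgals3bp, Ifitm2 and Ly6e kept their calls in each of the 6 fits without 1 library. The Tgtp copies and the Ifi203, Ifi204, Ifi205 and Mnda cluster share much sequence, and the division of reads among them is uncertain.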

How the data were processed

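RNA was sequenced from its 5′ ends, from 2500 cells per sample by the series' own description; the study's methods give a lower number. The deposited table holds raw read counts per gene, not molecule counts, for 84 wells; per the labels, a replicate had 3 wells, or 2 on day 10. The authors aligned reads to mm10 (GRCm38), and the submitters' processing notes name Bowtie 0.12.9 and DESeq2 1.6.3. Wells of a replicate were summed to 30 libraries.

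Counts were tested with edgeR 4.0.16 (TMM, filterByExpr with a minimum count of 10, quasi-likelihood, Benjamini-Hochberg over all genes tested) in R 4.3.3, on the 24 reprogramming libraries (10237 genes) or, for MEF and ESC, on all 30 (10979 genes). Levels used DESeq2 1.42.0 size factors, and the floor was 3 reads. The call threshold was 0.05. The test was checked on simulated data. Alternatives were DESeq2, its size factors in edgeR, no filter, the other sample set, 1 well per library, each library left out, and replicate number as a block.

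The members and the gene lists were chosen with earlier results of these data known. Members named in full were 14 set by role, those called between the vectors, and the 3 most changed each way in other comparisons. Of genes outside the list, Irf1, the receptors and pathway genes called between the vectors were named, and 1 result of that rule is not reported here. The design states that replicate numbers are paired over days within a vector series and does not say so between vectors. The correlations of same-numbered deviations averaged -0.0445 to 0.0572 between neighbouring days and -0.0857 to 0.0254 between vectors. Intervals and floors cover counting error only.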

Additional observations from a re-analysis of the deposited data

Results flagged for a closer look

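For 4 members the Sm3CA minus Cont difference of day 10 departed from that of day 3 by a test of the difference itself (edgeR interaction term, adjusted over all genes tested). On the log2 scale the day 10 difference minus the day 3 difference was -7.33 for Usp18, -2.12 for Ifitm3, -2.58 for Gbp2 and -2.17 for Irgm1, each with 3 libraries per group and day. The value for Usp18 rests on Cont d3 libraries without a read of it and is no estimate of size. Only Ifitm3 kept its call in all 12 fits that left out 1 library. On day 3, Ifitm3 was at 537, 729 and 592 in Cont and 686, 866 and 636 in Sm3CA libraries, against 2388, 3080 and 2976 and 829, 748 and 685 on day 10. Gbp2 was at 3.57, 6.49 and 6.5 in Cont and 15.4, 12.1 and 6.26 in Sm3CA libraries on day 3, and Irgm1 at 30.3, 15.6 and 30.9 and 20.7, 25 and 23. The cause of these differences was not tested.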

How the results depend on the processing

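None of the 238 called values of single genes changed direction under an alternative. Of the 233 not called, 85 did under at least 1, Isg15 on day 3 among them. The number of members called between the vectors on day 10, 20, was 12 to 20 over the fits without 1 library and stayed within 1.5 times under the alternatives that kept all libraries. The other counts were less stable. On day 8 the 7 became 2 with DESeq2, 17 without the filter and 4 with all 30 libraries in the fit, and 1 to 10 without 1 library. For day 10 against day 3 the 4 became 2 with all 30 libraries and 2 with 1 well per library, and 1 to 6 without 1 library. For day 10 against day 8 the 0 became 1 with DESeq2, 6 without the filter, 1 with the replicate block (1 also with the block within each series, added after seeing the data) and 1 with 1 well per library, and 0 to 2 without 1 library. In Cont from day 3 to 6 the 3 became 7 without the filter and 1 with 1 well, and 2 to 4 without 1 library, from day 6 to 8 the 25 became 16 to 29, and from day 8 to 10 the 18 became 8 with DESeq2, 11 with all 30 libraries and 4 to 19. In Sm3CA the 10 from day 3 to 6 became 4 with 1 well and 4 to 11, the 10 from day 6 to 8 became 4 to 15, and the 5 from day 8 to 10 became 11 without the filter, 3 with all 30 libraries, 2 with 1 well and 1 to 9. Against MEF, the 11 in Sm3CA on day 3 became 5 with only those groups in the fit, 7 with 1 well and 7 to 11, the 11 in Cont on day 3 became 7 to 12, the 39 in Cont on day 10 became 34 to 40, and the 14 in ESC became 6 with only those groups and 12 to 14. The 37 in ESC against Cont on day 10 became 37 to 39. On days 3 and 6 between the vectors the count was 0 in each fit without 1 library. The cause of these moves was not tested, beyond the loss of samples or genes that a setting itself brings. The replicate block ended the calls of Irf7 (adjusted p = 0.0529), Ifngr2 (0.0564) and Irgm2 (0.0721) on day 10 and, within each series, of Mx2 in Cont from day 8 to 10 (0.072) and Cxcl10 in Sm3CA from day 6 to 8 (0.0519). It brought in Ifitm3 for day 10 against day 8 and, within each series, Ifi47 (0.0371) and Xaf1 (0.0334) for day 10 against day 3. It ended no other call of a member named, and the block within the series called 7 in Sm3CA from day 8 to 10. Members at a few reads per library cannot show a decrease.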
